A study of Homo sapiens with 30 samples.

Results

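The genes described here are 50 mitotic (G2/M) genes, which cells transcribe most strongly as they approach and pass through cell division. They were chosen by gene symbol, with no measured value in the rule, but with earlier results of these data known. All 50 symbols were found among the 57373 genes of the deposited count table. All 50 also passed the filter on low counts that left 18485 genes to test, and the lowest count of any of them in a library was 153. The libraries were made from U2OS cells, an osteosarcoma line of human origin, in 6 groups of 5, in a study of how β-catenin bears on the activity of FOXP2, a forkhead transcription factor. Cells of the dhelix FOXP2 + CHIR, WT FOXP2 + CHIR and CHIR groups had received 5 µM CHIR99021 (CHIR), which blocks glycogen synthase kinase 3 and is a common means of switching on Wnt signalling through β-catenin. The drug was added 72 h before the transfection, and the dhelix FOXP2, WT FOXP2 and mock groups did not receive it. FOXP2 plasmids (500 ng) were carried into the cells with a lipid reagent for 48 h, either for wild-type FOXP2 (WT FOXP2) or for FOXP2 without residues 264 to 272 (dhelix FOXP2). The mock group is described as mock-transfected, and the labels do not say whether mock and CHIR cells received an empty plasmid. A change in FOXP2 groups against mock or CHIR therefore cannot be told apart from an effect of carrying a plasmid. All groups are 1 cell line, the FOXP2 groups overexpress the protein from a plasmid, and neither a selection step nor a transfection efficiency is given. The replicates are called biological, and nothing says whether they came from separate cultures started on different days, so p-values measure the spread between these samples.

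Cells enter mitosis when cyclin-dependent kinase 1 (CDK1), bound to A- and B-type cyclins, is activated by CDC25 phosphatases. Polo-like and Aurora kinases, kinesin motors and microtubule-binding proteins then build the spindle, the kinetochore and the spindle assembly checkpoint hold chromosomes until all are attached, and CDC20 with the anaphase-promoting complex releases them. Many of these genes share regulation by the MuvB complex with B-MYB and FOXM1, through a promoter element called the cell cycle genes homology region (CHR), and by NF-Y, which binds CCAAT boxes. The total mRNA level of such genes in a culture depends on how many cells are in G2 and mitosis as well as on transcription in each cell, and with bulk RNA fewer cells in that phase and less RNA per cell cannot be told apart.

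Promoter windows of the genes show which of these 2 elements they share. RefSeq promoters (GRCh38.p14, 250 bases before to 50 after the annotated start) were matched for 44 of the 50 genes. A CHR (TTTGAA or TTCGAA, on either strand) stood in 33 of the 44 windows (75%), against 16.4% of the 35116 promoters in the table. A CCAAT box on either strand also stood in 33 (75%), against 34.6% of all promoters, and 21 of the 44 (47.7%) held at least 2, against 10.8%. Both elements stood in 27 (61.4%), against 6.38%. The forkhead motif TGTTTAC stood only in the CDK1 window, 1 of 44 (2.27%), against 3.42% of all promoters. The 5 windows below belong to the genes whose changes span the results: CKAP2L and KIF20A had the largest falls with CHIR, CENPF the largest fall with FOXP2, and CDC20 and HMMR rose with FOXP2 and fell with CHIR. Each shows 250 bases, 5′ to 3′ on the gene's strand, and capitals mark CHR and CCAAT matches on either strand (TTCAAA or TTCGAA, and ATTGG, on the reverse strand). A match is a description of these letters and not of binding. The CKAP2L window lies at chr2:112764610-112764859 on the minus strand, and the other 4 lie on the plus strand: KIF20A at chr5:138178862-138179111, CENPF at chr1:214602945-214603194, CDC20 at chr1:43358731-43358980 and HMMR at chr5:163460382-163460631.
CKAP2L: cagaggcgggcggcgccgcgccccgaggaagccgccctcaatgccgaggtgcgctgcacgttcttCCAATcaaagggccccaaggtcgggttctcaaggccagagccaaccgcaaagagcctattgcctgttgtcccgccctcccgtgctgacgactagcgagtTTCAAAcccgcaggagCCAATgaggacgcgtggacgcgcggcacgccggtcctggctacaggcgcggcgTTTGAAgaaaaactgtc
KIF20A: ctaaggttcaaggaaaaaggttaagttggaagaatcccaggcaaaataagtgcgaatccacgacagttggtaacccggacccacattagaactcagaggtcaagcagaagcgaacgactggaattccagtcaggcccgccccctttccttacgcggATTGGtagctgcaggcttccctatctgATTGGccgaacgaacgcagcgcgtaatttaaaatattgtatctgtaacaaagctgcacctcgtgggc
CENPF: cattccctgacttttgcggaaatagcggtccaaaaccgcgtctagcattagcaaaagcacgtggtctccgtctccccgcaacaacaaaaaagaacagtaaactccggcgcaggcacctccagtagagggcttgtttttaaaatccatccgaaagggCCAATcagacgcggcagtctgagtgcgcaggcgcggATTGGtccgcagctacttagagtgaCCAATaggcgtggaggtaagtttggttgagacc
CDC20: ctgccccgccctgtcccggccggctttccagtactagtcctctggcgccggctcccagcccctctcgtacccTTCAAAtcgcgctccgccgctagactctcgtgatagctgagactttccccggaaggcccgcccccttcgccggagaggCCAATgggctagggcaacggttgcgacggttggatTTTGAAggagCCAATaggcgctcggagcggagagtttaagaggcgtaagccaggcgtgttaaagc
HMMR: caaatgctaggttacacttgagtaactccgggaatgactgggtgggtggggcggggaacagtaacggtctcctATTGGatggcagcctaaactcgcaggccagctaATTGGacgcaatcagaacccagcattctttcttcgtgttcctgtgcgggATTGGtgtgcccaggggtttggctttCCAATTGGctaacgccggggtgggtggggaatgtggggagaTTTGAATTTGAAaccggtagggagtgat
CKAP2L and CDC20 each had 2 CHR matches and 2 CCAAT boxes, and KIF20A had 2 CCAAT boxes and no CHR match. CENPF had 3 CCAAT boxes here, and its 1 CHR lies after the bases shown. HMMR had 2 CHR matches and 5 CCAAT boxes, of which 1 pair shares bases.

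The libraries held 15755842 to 29466652 counts each, and levels are given as CPM, in which counts are scaled to a common library size, here after scaling by trimmed means of M values. FOXP2 averaged 13481, 15299, 5319 and 7076 CPM in the dhelix FOXP2 + CHIR, WT FOXP2 + CHIR, dhelix FOXP2 and WT FOXP2 groups, against 0.504 CPM in CHIR and 0.898 CPM in mock cells. With either construct FOXP2 was thus higher with the drug than without it, and it was lower with dhelix FOXP2 than with WT FOXP2. Comparisons across these groups cannot tell the FOXP2 level from the drug or the deletion. AXIN2, a target of Wnt signalling, averaged 145 CPM in CHIR cells, against 21.0 CPM in mock cells. Of 9 osteoblast-lineage markers 5 passed the filter (SP7, COL1A2, BGLAP and IBSP did not, with at most 7 counts in a library), and their summed level ranged over 929.7 to 1014, 742 to 789.7, 1296 to 1729, 1335 to 1441 and 1078 to 1174 CPM in dhelix FOXP2 + CHIR, WT FOXP2 + CHIR, CHIR, dhelix FOXP2 and WT FOXP2 libraries, against 3282 to 3443 CPM in mock. The sum is mostly SPARC and COL1A1. With CHIR 4 of the 5 fell and 1 rose (RUNX2, 0.89 ± 0.046), and with either construct 3 fell and 2 rose, ALPL among them (2.00 ± 0.12 with dhelix FOXP2 and 2.68 ± 0.12 with WT FOXP2). Epithelial markers (4 of 5 tested, KRT8 and KRT18 above 100 CPM in all groups, CDH1 at most 1.34 CPM) summed to 572 to 620.2, 543 to 609, 331 to 410.2, 641 to 689 and 637 to 672 CPM in the same 5 groups, against 360.0 to 400.4 CPM in mock. Blood markers (3 of 5 tested, with HBB at 0 in all libraries) summed to 11.98 to 14.1, 17.8 to 19.9, 2.26 to 2.98, 10.4 to 11.9 and 12.3 to 13.8 CPM, against 0.294 to 0.715 CPM in mock, most of it ITGAM and CD3D in the FOXP2 groups; all 3 rose with CHIR. Endothelial markers (3 of 3 tested) summed to 39.8 to 48.4, 16.7 to 25.7, 2.88 to 4.11, 7.62 to 10.1 and 2.40 to 3.66 CPM, against 5.11 to 6.44 CPM in mock, and all 3 fell with CHIR. These lists move with the treatments, and their part in the results below was not tested. CHIR replicate 1 stood apart from its group. Pairs among its 4 fellow replicates had a chi-square of 1.78 to 4.14 per gene. Their pairs with replicate 1 had 18.8 to 34.8, with a mean of 28.5. The median of the 50 genes in replicate 1 was 0.21 above the rest of its group on the log2 scale, while for all genes tested the median was -0.0033. Without it, the call changed for 4 of the 50 genes in CHIR against mock, 5 in WT FOXP2 + CHIR against CHIR and 4 in dhelix FOXP2 + CHIR against CHIR, and 6, 4 and 4 further called values there moved by over 1.5 times.

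Across the 6 groups, most of the genes were highest without drug and lowest with FOXP2 and CHIR together. Relative to the mean of the mock libraries, the median of the 50 genes on the log2 scale was -0.74 in dhelix FOXP2 + CHIR cells, -0.74 in WT FOXP2 + CHIR, -0.40 in CHIR, -0.047 in dhelix FOXP2 and -0.11 in WT FOXP2 cells. Single libraries ranged over -0.79 to -0.69, -0.78 to -0.70, -0.45 to -0.30, -0.084 to -0.011 and -0.12 to -0.042 in those 5 groups, and over -0.016 to 0.024 in mock. The libraries with FOXP2 and CHIR thus lay below every CHIR library, and these below every library without the drug. Of the 50 genes, 28 had their lowest group mean in WT FOXP2 + CHIR, 16 in dhelix FOXP2 + CHIR and 6 in CHIR cells. The highest mean lay in mock for 27, in dhelix FOXP2 for 13, in WT FOXP2 for 9 and in CHIR for 1, PLK4. The shares of all genes with their lowest or highest mean in each group are not given here. All 10 libraries with FOXP2 and CHIR lay below all 20 others for 34 of the 50 genes, against 6.17% of all genes tested. All 15 libraries with CHIR lay below all 15 without it for 21, against 3.18%. The ratio of the highest to the lowest group mean was 4.14 for KIF20A, 3.97 for CENPF, 3.75 for NUSAP1 and 1.33 for BUB3, the lowest of the 50.

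**Figure D1:**
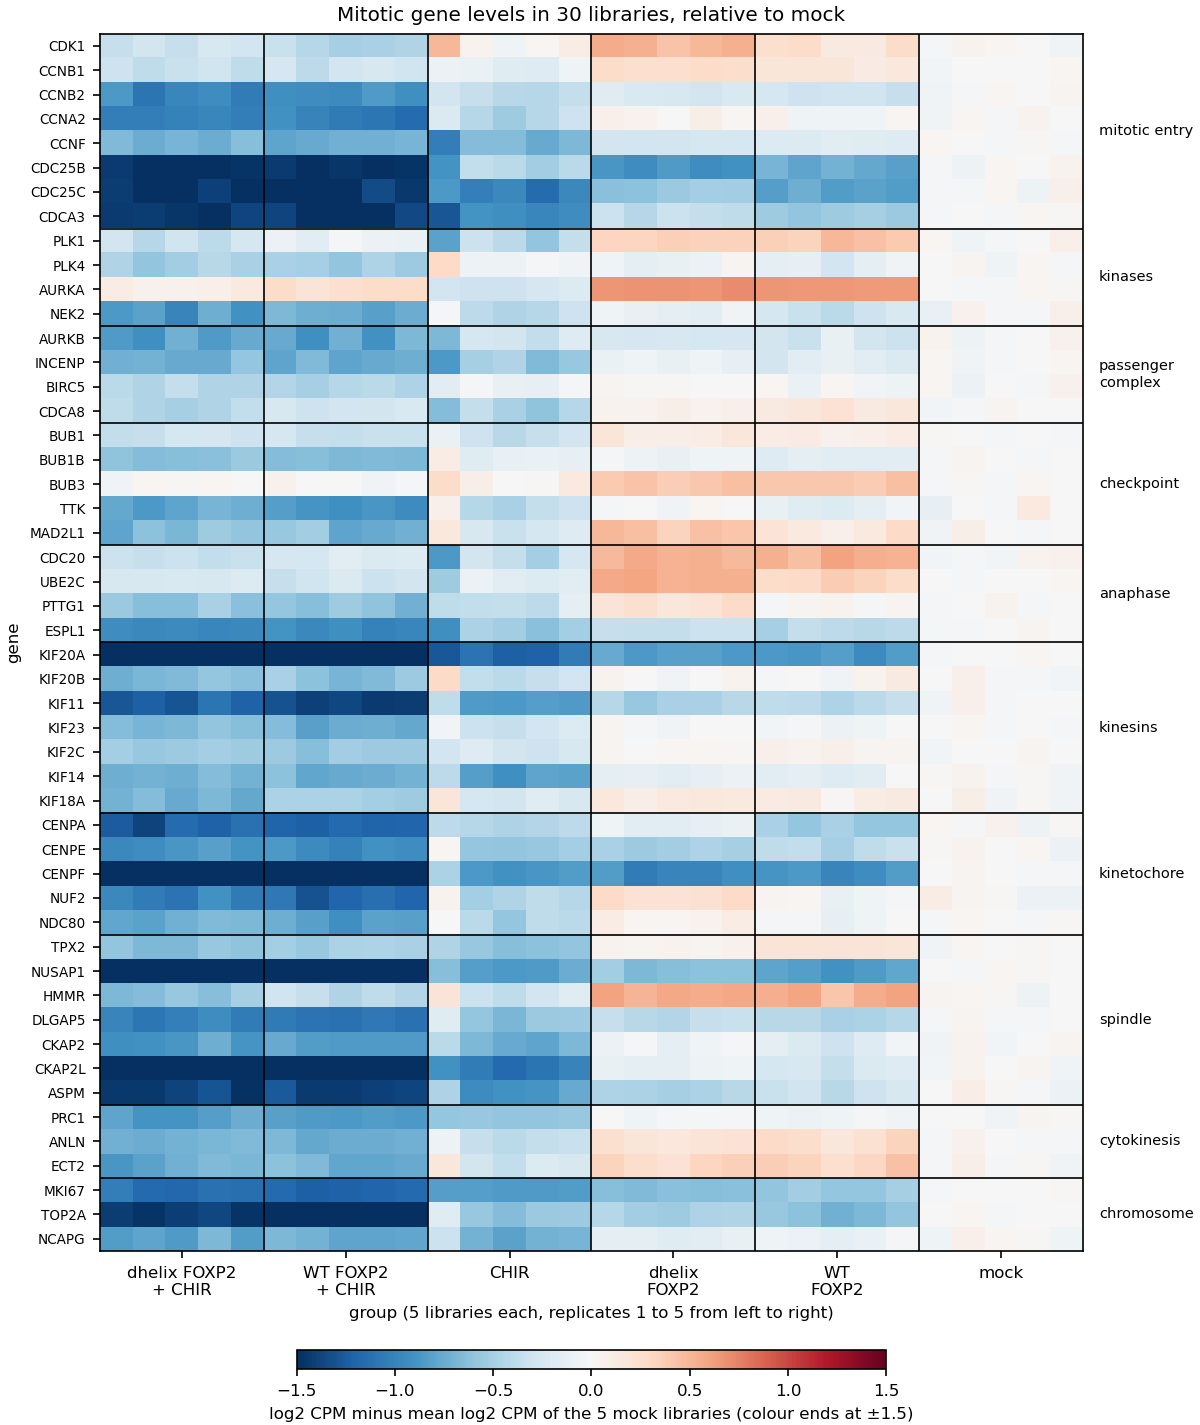
Level of each of the 50 mitotic genes (vertical axis, grouped by role) in each of the 30 libraries (horizontal axis), as log2 CPM minus the mean log2 CPM of the 5 mock libraries. Blue is lower and red higher than mock: the 10 libraries with FOXP2 and CHIR are blue for most genes (group medians of -0.74), and CHIR replicate 1 differs from the other CHIR libraries for many genes.

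CHIR alone lowered most mitotic genes. Against mock, 46 of the 50 fell and 2 rose at an adjusted p under 0.05 (edgeR's quasi-likelihood test with Benjamini-Hochberg adjustment over all genes, n = 5 per group), while 35.3% of all genes tested fell and 38.8% rose. The median log2 fold change was -0.40 for the 50 genes and 0.023 for all genes tested. All CHIR libraries lay below all mock libraries for 35 of the 50, against 27.8% of all genes. The falls reached 1.5-fold for 15 genes and 2-fold for 2, KIF20A and CKAP2L. Of all 18485 genes tested, 7371 passed with a change of at least 1.5-fold, up or down, and 4059 with at least 2-fold. Genes of each role fell: all 7 spindle and microtubule-binding genes fell (median -0.65), as did all 7 kinesins (-0.26), all 5 kinetochore genes (-0.42), all 4 genes of anaphase onset (-0.38) and all 3 chromosome genes (-0.64). All 4 passenger complex genes (-0.42) and all 3 cytokinesis genes (-0.30) fell too. Not all did among the entry genes (7 of 8 fell and 1 rose, -0.44) and the kinases (3 of 4, -0.29). Of the 5 checkpoint genes 3 fell, 1 rose and 1 did not pass (-0.16). The calls of KIF18A and MAD2L1 were lost without CHIR replicate 2 (-0.11 and -0.14, adjusted p = 0.07 and 0.066; 5.6e-10 to 0.07 and 2.6e-06 to 0.066 over all alternatives). Without CHIR replicate 1, 48 of the 50 fell, none rose and the median was -0.46.

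The 2 largest falls were those of a motor and of a spindle protein. KIF20A, a kinesin that works at the central spindle during cytokinesis, was at 89.3, 99.9, 92.3, 93.1 and 104 CPM in the 5 CHIR libraries, against 213, 215, 215, 219.6 and 216 CPM in the 5 mock libraries. The groups did not overlap, and its level was 2.25-fold lower with CHIR (log2 fold change -1.17 ± 0.042, adjusted p = 3.7e-24). Its exons overlap BRD8 and CDC23 on the other strand, whose mean counts were 89.7% and 47.3% of its own, so a counting that ignored strand could have mixed them. CKAP2L, a spindle and centrosome protein, was at 74.9, 67.9, 62.5, 65.8 and 70.1 CPM in CHIR, against 136, 146, 141, 144 and 136 CPM in mock (log2 fold change -1.04 ± 0.042). Its groups did not overlap either. Of the entry genes, CDCA3, an adaptor in the degradation of mitotic-entry inhibitors, changed by -0.996 ± 0.048 and CDC25C, a phosphatase that activates CDK1, by -0.99 ± 0.055. CDC25C stood at 16.3, 14.5, 15.1, 13.3 and 15.2 CPM in CHIR, against 29.4, 29.1, 30.3, 28.1 and 31.3 CPM in mock, and its exons overlap FAM53C, which held more counts, on the other strand.

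The proliferation markers were among the genes that fell. MKI67, the Ki-67 antigen that coats mitotic chromosomes, was at 618, 613, 607, 604 and 611 CPM in CHIR, against 1072, 1090.4, 1093, 1096 and 1105 CPM in mock. It was 1.79-fold lower (log2 fold change -0.84 ± 0.027, adjusted p = 1.3e-25), and CHIR replicate 1 was like the others for it. TOP2A, the topoisomerase that untangles sister chromatids, was at 1061, 812, 769.7, 825 and 827 CPM in CHIR, against 1207, 1237, 1197, 1202 and 1200.4 CPM in mock. CENPF, a kinetochore protein of late G2 and mitosis, was at 623, 477, 461, 475 and 484 CPM in CHIR, against 867, 894, 868, 854 and 853 CPM in mock. For both genes the highest CHIR library was replicate 1, and all CHIR libraries still lay below mock; the log2 fold changes were -0.49 ± 0.05 and -0.78 ± 0.055.

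CDK1 and its cyclins did not move alike. CDK1 was at 258, 189, 174, 186 and 198 CPM in CHIR, against 179.7, 189, 186, 182 and 176 CPM in mock, with replicate 1 above the rest and the other 4 overlapping mock. Its call as risen (log2 fold change 0.14 ± 0.061, adjusted p = 0.038) rests on that library: without it the value was -0.0057 (adjusted p = 0.89; 0.019 to 0.89 over all alternatives). BUB3, a checkpoint protein and the other gene called as risen, was at 208, 183, 173, 174 and 190.0 CPM in CHIR, against 169, 175, 169, 176 and 173 CPM in mock. Its groups overlapped, and its log2 fold change of 0.11 ± 0.036 became 0.026 without replicate 1 (adjusted p = 0.4; 0.0069 to 0.96 over all alternatives) and -0.0024 when scaled by library totals. CCNB1, the main cyclin partner of CDK1 in mitosis, was at 368, 366, 346, 343 and 373 CPM in CHIR, against 379, 389.6, 394, 394 and 401 CPM in mock, a small fall (-0.12 ± 0.03, adjusted p = 0.00036). CCNF, the substrate-binding subunit of a ubiquitin ligase of G2, was at 73.9, 97.1, 96.6, 90.0 and 95.2 CPM in CHIR, against 155, 151, 149.9, 154 and 150.3 CPM in mock, and all CHIR libraries lay below mock (-0.75 ± 0.044). CDC25B, a phosphatase that starts CDK1 activation, was at 97.6, 140.1, 137, 127 and 137 CPM in CHIR, against 179, 172, 185, 182 and 188 CPM in mock (-0.51 ± 0.054).

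Several kinases and their partners also fell. AURKA, the Aurora kinase of centrosomes and spindle poles, was at 123, 121, 120.3, 126 and 129.6 CPM in CHIR, against 149, 147, 148, 152 and 151 CPM in mock, with no overlap (-0.27 ± 0.029, adjusted p = 9.2e-11). PLK1, the polo-like kinase that drives mitotic entry and spindle assembly, was at 79.7, 111, 105, 92.6 and 109 CPM in CHIR, against 141, 133, 136, 139 and 146 CPM in mock, again with no overlap (-0.48 ± 0.054). BIRC5, survivin of the chromosomal passenger complex, was at 301, 329, 311, 307 and 332 CPM in CHIR, against 341, 316, 337, 332 and 350.2 CPM in mock, and the groups overlapped (-0.086 ± 0.033, adjusted p = 0.019). Without mock replicate 5 that call was lost (-0.07), while without CHIR replicate 5 or mock replicate 2 the value was -0.13 or -0.14. PLK4, the kinase of centriole duplication, and BUB1B, a checkpoint protein, did not pass the test (0.025 ± 0.054, adjusted p = 0.69, and -0.075 ± 0.036, adjusted p = 0.059). Without CHIR replicate 1 both fell, to log2 fold changes of -0.089 and -0.16.

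The remaining genes with values for every library also fell. CDC20, the activator of the anaphase-promoting complex, was at 197, 296, 279, 252 and 300.0 CPM in CHIR, against 348, 351, 347, 372 and 374 CPM in mock (-0.44 ± 0.061), with replicate 1 lowest. CENPA, the histone variant that marks centromeres, was at 50.6, 49.3, 48.4, 49.1 and 50.5 CPM in CHIR, against 68.1, 65.0, 69.3, 63.1 and 67.1 CPM in mock (-0.42 ± 0.04). Its counts are uncertain, since its exons overlap SLC35F6 on the same strand. CKAP2, a microtubule-stabilising protein, was at 101, 83.4, 78.6, 77.1 and 83.8 CPM in CHIR, against 128, 138, 129.8, 133 and 137 CPM in mock (-0.65 ± 0.052). HMMR, a microtubule-binding protein and hyaluronan receptor, was at 74.4, 52.1, 50.1, 53.2 and 57.4 CPM in CHIR, against 66.7, 66.3, 65.8, 61.6 and 65.1 CPM in mock; replicate 1 lay above mock and the other 4 below it (-0.18 ± 0.064, adjusted p = 0.011). Without CHIR replicate 2 the call of HMMR was lost (-0.14, adjusted p = 0.052; 1.6e-10 to 0.054 over all alternatives). Without CHIR replicate 1 it was -0.33. ECT2, the exchange factor that starts the cleavage furrow, had the same pattern, with 175, 129, 120.0, 135 and 131 CPM in CHIR, against 154, 166, 153, 157 and 149.5 CPM in mock (-0.17 ± 0.061, and -0.31 without CHIR replicate 1). ASPM, a spindle-pole protein, was at 143, 103, 105, 107 and 117 CPM in CHIR, against 197, 212, 199, 193 and 186 CPM in mock, and did not overlap (-0.78 ± 0.057).

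Without the drug, the genes were divided between higher and lower levels in FOXP2 cells. In WT FOXP2 cells, 14 of the 50 rose and 24 fell against mock (edgeR, n = 5 per group), where 39.9% of all genes rose and 41.6% fell; the shares for the 50, 28% and 48%, are thus not far from the background. In dhelix FOXP2 cells 15 rose and 20 fell, with a background of 39.6% and 40.9%. The median log2 fold change was -0.11 for WT FOXP2 and -0.047 for dhelix FOXP2, against -0.021 and -0.015 for all genes. Every WT FOXP2 library lay above every mock library for 14 of the 50 and below for 21, against 36.2% and 36.8% of all genes, and for dhelix FOXP2 these counts were 17 and 20, against 36.4% and 36.8%. The split of calls depends on the scaling. With upper-quartile scaling 9 rose and 33 fell in WT FOXP2 cells, and 13 rose and 28 fell in dhelix FOXP2 cells. With library totals the counts were 8 and 34, and 11 and 31. Scaling by library totals also moved the median of all genes to -0.19 for WT FOXP2 and to -0.13 for dhelix FOXP2, so the small changes of single genes are relative to that. Both comparisons use the same mock libraries, and their values are given side by side.

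AURKA, HMMR and CDC20 were among the genes that rose most with either construct, and for all 3 every FOXP2 library lay above every mock library. AURKA was at 236, 238, 238, 237 and 244 CPM in dhelix FOXP2 and 237, 234, 235, 233 and 232 CPM in WT FOXP2 cells, above the mock values given above (0.68 ± 0.028 and 0.65 ± 0.028, adjusted p = 1.2e-22 and 4.5e-22). These are 1.60-fold and 1.57-fold the mock level. HMMR was at 99.2, 93.0, 97.6, 95.6 and 97.5 CPM in dhelix FOXP2 and 94.7, 98.3, 86.9, 95.8 and 99.1 CPM in WT FOXP2 cells (0.57 ± 0.061 and 0.55 ± 0.062). CDC20 was at 500.0, 533, 514, 519 and 501 CPM in dhelix FOXP2 and 519, 490.1, 546, 522 and 514 CPM in WT FOXP2 cells (0.52 ± 0.06 and 0.53 ± 0.061). BUB3 was at 227, 231, 222, 227 and 236 CPM in dhelix FOXP2 and 227, 228, 228, 225 and 236 CPM in WT FOXP2 cells (0.41 ± 0.036 and 0.41 ± 0.036). BUB3 too lay wholly above mock. PLK1 was at 174, 173, 179, 177 and 176 CPM in dhelix FOXP2 and 178, 176, 197, 188 and 183 CPM in WT FOXP2 cells (0.34 ± 0.053 and 0.41 ± 0.053), and ECT2 at 196, 186, 180.4, 194 and 199 CPM in dhelix FOXP2 and 200.2, 196, 186, 193 and 211 CPM in WT FOXP2 cells (0.30 ± 0.06 and 0.34 ± 0.06). Both rose with either construct, and these directions held under all scalings tried. CDK1 rose too, with 269, 264, 246, 258 and 263 CPM in dhelix FOXP2 and 215, 220.3, 199.7, 201 and 222 CPM in WT FOXP2 cells (0.51 ± 0.06 and 0.21 ± 0.06), as did UBE2C, the ubiquitin-conjugating enzyme of the anaphase-promoting complex (0.55 ± 0.046 and 0.31 ± 0.046). CCNB1 was at 472, 464, 465, 472 and 468 CPM in dhelix FOXP2 and 444, 444, 444, 424 and 438 CPM in WT FOXP2 cells (0.26 ± 0.03 and 0.17 ± 0.03). With WT FOXP2, the calls of CDK1 and CCNB1 were lost under library totals (0.049 and 0.0017) and under upper-quartile scaling (0.096 and 0.049).

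CENPF had the largest fall with either construct, and KIF20A, CDC25B and NUSAP1, a spindle protein that bundles microtubules, also fell. CENPF was at 484, 420.1, 437, 436 and 457 CPM in dhelix FOXP2 and 472, 477, 436, 455 and 486 CPM in WT FOXP2 cells (-0.96 ± 0.055 and -0.90 ± 0.055, adjusted p = 1.1e-17 and 6.2e-17). KIF20A was at 128, 119, 123, 123 and 119 CPM in dhelix FOXP2 and 119, 118, 122, 112 and 121 CPM in WT FOXP2 cells (-0.82 ± 0.041 and -0.87 ± 0.042). CDC25B was at 99.1, 95.1, 101, 95.3 and 96.7 CPM in dhelix FOXP2 and 112, 105, 111, 106 and 103 CPM in WT FOXP2 cells (-0.90 ± 0.054 and -0.76 ± 0.055). In each case no FOXP2 library reached a mock library. NUSAP1 averaged 188 ± 7.06 CPM in dhelix FOXP2 and 162 ± 5.65 CPM in WT FOXP2 cells, against 288 ± 4.05 CPM in mock (SD, n = 5 each; -0.61 ± 0.038 and -0.83 ± 0.038). MKI67 was at 703, 691, 705, 700.1 and 709 CPM in dhelix FOXP2 and 724, 759.6, 727, 728 and 773 CPM in WT FOXP2 cells (-0.64 ± 0.027 and -0.56 ± 0.027). TOP2A was at 897, 845, 837, 874 and 881 CPM in dhelix FOXP2 and 816, 792, 735, 759.9 and 805 CPM in WT FOXP2 cells (-0.48 ± 0.05 and -0.63 ± 0.05). Both proliferation markers thus lay below mock in all 10 libraries. CDC25C was at 19.2, 19.3, 20.1, 20.8 and 20.6 CPM in dhelix FOXP2 and 16.7, 17.8, 16.6, 17.0 and 16.6 CPM in WT FOXP2 cells (-0.57 ± 0.051 and -0.81 ± 0.053). CCNF was at 125, 124, 126, 126 and 126 CPM in dhelix FOXP2 and 131, 131, 137, 134 and 133 CPM in WT FOXP2 cells (-0.28 ± 0.043 and -0.19 ± 0.043).

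Other genes changed little or passed with 1 construct. CENPA was at 63.4, 59.8, 59.6, 60.8 and 61.9 CPM in dhelix FOXP2 and 47.4, 44.3, 47.5, 44.3 and 44.4 CPM in WT FOXP2 cells (-0.12 ± 0.039 and -0.55 ± 0.04); with dhelix FOXP2 its call was lost without mock replicate 3 (-0.086). CKAP2 was at 125, 130.0, 121, 127 and 131 CPM in dhelix FOXP2 and 120.5, 115, 108, 117 and 129 CPM in WT FOXP2 cells, and passed with WT FOXP2 (-0.18 ± 0.051, adjusted p = 0.0018) and not with dhelix FOXP2 (-0.071 ± 0.05, adjusted p = 0.19). BIRC5 passed with neither, with 344, 339, 340.2, 336 and 334 CPM in dhelix FOXP2 and 343, 313, 343, 325 and 318 CPM in WT FOXP2 cells (0.015 ± 0.033 and -0.03 ± 0.033). Its libraries overlapped those of mock. CKAP2L was at 130.3, 128, 127, 134 and 135 CPM in dhelix FOXP2 and 117, 119, 110.0, 121 and 123 CPM in WT FOXP2 cells (-0.11 ± 0.04 and -0.25 ± 0.041), a call that was lost with dhelix FOXP2 under 12 of 41 alternatives, 10 of them fits without 1 library. ASPM was at 143, 141, 139, 142 and 148 CPM in dhelix FOXP2 and 156, 160.3, 148, 159 and 167 CPM in WT FOXP2 cells (-0.47 ± 0.056 and -0.32 ± 0.056). By role, all 3 chromosome genes fell with dhelix FOXP2, and 2 of 3 with WT FOXP2. None of the 7 kinesins rose with WT FOXP2 and 1, KIF18A, rose with dhelix FOXP2. Of the 5 checkpoint genes, 3 rose with each construct (BUB1, BUB3 and MAD2L1), although with WT FOXP2 the value of BUB1 was -0.021 and -0.068, and that of MAD2L1 0.057 and 0.01, under upper-quartile scaling and library totals. The calls of BUB1 and KIF18A with dhelix FOXP2 were lost under the same 2 scalings.

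**Figure D2:**
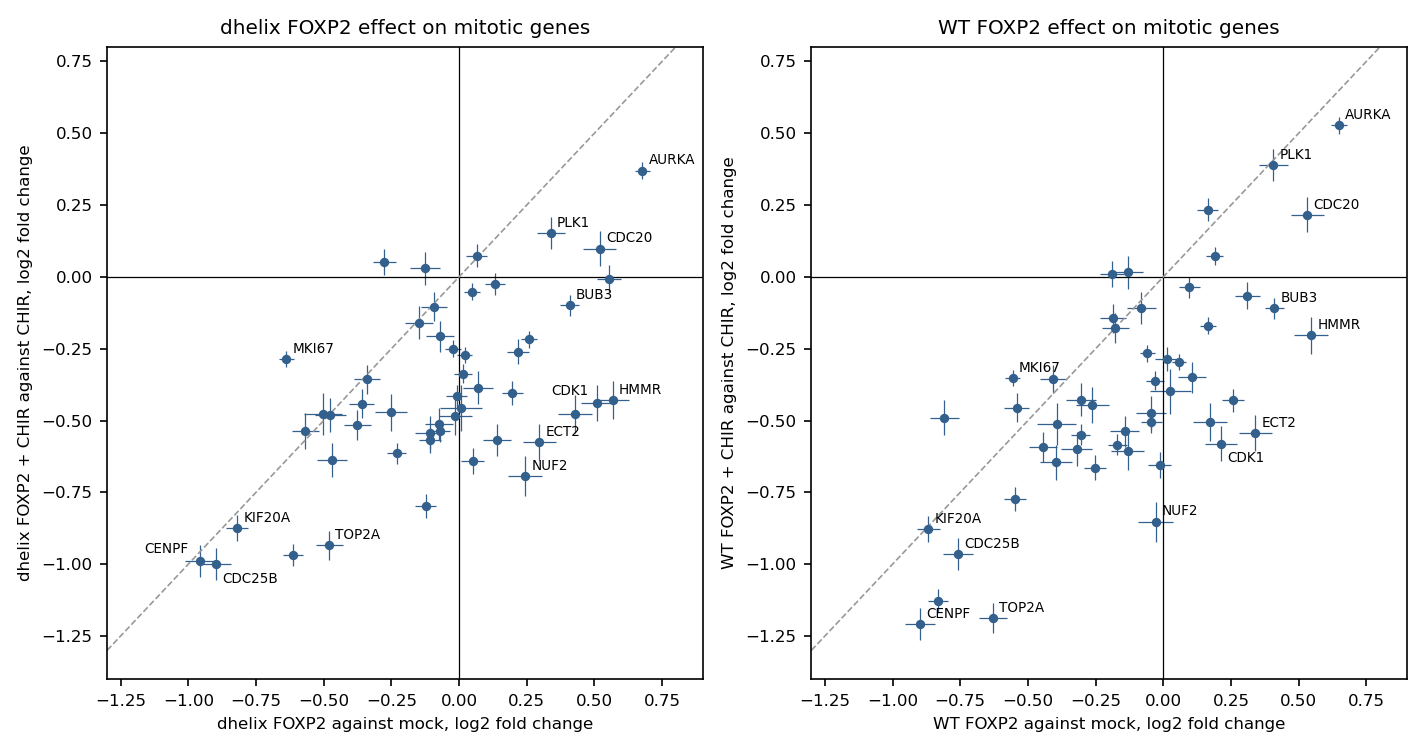
Log2 fold change of each of the 50 genes with FOXP2 in the absence of CHIR (horizontal axis, against mock) and in its presence (vertical axis, against CHIR), for dhelix FOXP2 (left) and WT FOXP2 (right); bars are standard errors and the dashed line marks equal changes. CDK1 lies right of 0 and below it, since it rose without CHIR and fell with it, as does HMMR, whose fall with WT FOXP2 was lost without CHIR replicate 1, while AURKA and PLK1 lie above 0 on both axes.

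In cells that carried FOXP2, all of the genes were lower with CHIR, where the level of FOXP2 was also higher. All 50 fell in WT FOXP2 cells and all 50 fell in dhelix FOXP2 cells (edgeR, n = 5 per group), where 30.2% and 29.1% of all genes fell and 34.8% and 34.1% rose. The libraries with the drug lay below those without it for all 50 genes with either construct, against 25.7% and 25.3% of all genes. The median log2 fold change was -0.65 in WT FOXP2 and -0.75 in dhelix FOXP2 cells, against 0.035 and 0.039 for all genes. Of all 18485 genes tested, 4850 passed with at least 1.5-fold, up or down, in WT FOXP2 and 4487 in dhelix FOXP2 cells. For 2-fold these counts were 2424 and 2188. The falls of the 50 reached 1.5-fold for 35 genes in WT FOXP2 and 37 in dhelix FOXP2 cells, and 2-fold for 9 and 10. They ran from -1.46 for CKAP2L to -0.37 for PLK4 in WT FOXP2 cells, and from -1.503 for CKAP2L to -0.40 for CENPE, a kinetochore motor, in dhelix FOXP2 cells. The count stayed at 50 of 50 with each library left out in turn and under all scalings. The 2 genes that had passed as risen with CHIR alone, CDK1 and BUB3, fell here, as did the 2 that had not passed, PLK4 and BUB1B.

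CKAP2L was at 46.0, 44.3, 45.6, 48.1 and 46.3 CPM in dhelix FOXP2 + CHIR, against the dhelix FOXP2 values given above (-1.503 ± 0.044, adjusted p = 2.1e-26), and at 46.0, 40.1, 42.3, 45.2 and 41.6 CPM in WT FOXP2 + CHIR (-1.46 ± 0.044). This is a level 2.83-fold and 2.74-fold lower than in the same cells without the drug. KIF20A was at 54.5, 49.3, 51.3, 57.9 and 47.7 CPM in dhelix FOXP2 + CHIR and 53.9, 48.4, 51.9, 53.5 and 52.4 CPM in WT FOXP2 + CHIR cells (-1.23 ± 0.044 and -1.18 ± 0.044). TOP2A was at 449.8, 436, 453, 470.3 and 438 CPM in dhelix FOXP2 + CHIR and 404, 359, 376, 371 and 377 CPM in WT FOXP2 + CHIR cells (-0.95 ± 0.051 and -1.05 ± 0.051). CENPF was at 268, 241, 250.2, 263 and 247 CPM in dhelix FOXP2 + CHIR and 234, 214, 201, 219 and 223 CPM in WT FOXP2 + CHIR cells (-0.82 ± 0.055 and -1.09 ± 0.056). These 4 genes had their lowest levels of the study in these 10 libraries. MKI67 was at 534, 484, 483, 500.5 and 500.3 CPM in dhelix FOXP2 + CHIR and 487, 468, 469, 477 and 488 CPM in WT FOXP2 + CHIR cells (-0.49 ± 0.027 and -0.64 ± 0.027). CENPA was at 28.1, 25.4, 29.9, 28.7 and 30.7 CPM in dhelix FOXP2 + CHIR and 28.9, 28.3, 29.7, 28.9 and 29.3 CPM in WT FOXP2 + CHIR cells (-1.10 ± 0.042 and -0.65 ± 0.042), and the libraries of these 2 groups overlapped, while those without the drug did not.

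Genes that were higher in FOXP2 cells than in mock also fell with CHIR. ECT2 was at 84.7, 89.5, 94.6, 98.2 and 96.5 CPM in dhelix FOXP2 + CHIR and 101, 98.4, 90.8, 90.4 and 92.2 CPM in WT FOXP2 + CHIR cells (-1.04 ± 0.062 and -1.06 ± 0.062). HMMR was at 40.7, 41.3, 43.8, 42.0 and 46.0 CPM in dhelix FOXP2 + CHIR and 52.8, 51.2, 47.6, 49.9 and 48.1 CPM in WT FOXP2 + CHIR cells (-1.18 ± 0.064 and -0.93 ± 0.063). CDK1 was at 143, 150.5, 143, 155 and 149.8 CPM in dhelix FOXP2 + CHIR and 144, 136, 129, 129.8 and 133 CPM in WT FOXP2 + CHIR cells (-0.81 ± 0.061 and -0.65 ± 0.061). None of these libraries reached the lowest mock library of its gene. CDC20 was at 287, 281, 287, 276 and 285 CPM in dhelix FOXP2 + CHIR and 302, 298, 319.7, 307 and 309.6 CPM in WT FOXP2 + CHIR cells (-0.86 ± 0.061 and -0.75 ± 0.061). BUB3 was at 166, 176, 175, 176 and 172 CPM in dhelix FOXP2 + CHIR and 179.6, 171, 173, 166 and 169 CPM in WT FOXP2 + CHIR cells (-0.40 ± 0.036 and -0.41 ± 0.036), which overlaps its mock values. AURKA was at 162, 157, 157, 158 and 166 CPM in dhelix FOXP2 + CHIR and 181, 170.2, 178, 181 and 180.4 CPM in WT FOXP2 + CHIR cells (-0.58 ± 0.028 and -0.39 ± 0.028). It was the only gene of the 50 whose 10 libraries with FOXP2 and CHIR all lay above mock.

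The entry genes and the rest of those with values for every library fell too. CCNB1 was at 315, 300.1, 309.9, 319 and 301 CPM in dhelix FOXP2 + CHIR and 328, 298, 321, 330.4 and 318 CPM in WT FOXP2 + CHIR cells (-0.60 ± 0.03 and -0.46 ± 0.03). CCNF was at 96.1, 90.8, 93.5, 90.8 and 97.9 CPM in dhelix FOXP2 + CHIR and 88.0, 90.2, 92.1, 91.9 and 93.4 CPM in WT FOXP2 + CHIR cells (-0.42 ± 0.044 and -0.55 ± 0.044), and CDC25B at 66.8, 63.4, 60.3, 63.2 and 65.2 CPM in dhelix FOXP2 + CHIR and 67.3, 64.0, 65.7, 64.3 and 65.5 CPM in WT FOXP2 + CHIR cells (-0.61 ± 0.057 and -0.71 ± 0.057). The lowest CDC25B levels were thus reached with both treatments, while CCNF was about as low with CHIR alone. CDC25C was at 11.0, 9.85, 9.49, 11.2 and 9.73 CPM in dhelix FOXP2 + CHIR and 10.5, 9.77, 10.3, 11.7 and 10.9 CPM in WT FOXP2 + CHIR cells (-0.96 ± 0.058 and -0.67 ± 0.06). PLK1 was at 115, 103, 113, 106 and 115 CPM in dhelix FOXP2 + CHIR and 130.3, 124, 136, 131 and 129 CPM in WT FOXP2 + CHIR cells (-0.67 ± 0.054 and -0.50 ± 0.053). BIRC5 was at 254, 245, 261, 245 and 246 CPM in dhelix FOXP2 + CHIR and 247, 238, 249, 253 and 243 CPM in WT FOXP2 + CHIR cells (-0.44 ± 0.033 and -0.42 ± 0.033). BIRC5 had changed by -0.086 with CHIR alone and had not passed with FOXP2 alone. CKAP2 was at 70.6, 70.9, 72.9, 80.4 and 72.2 CPM in dhelix FOXP2 + CHIR and 78.7, 74.4, 74.0, 73.7 and 73.7 CPM in WT FOXP2 + CHIR cells (-0.79 ± 0.052 and -0.65 ± 0.052), and ASPM at 72.3, 72.1, 75.0, 80.2 and 70.4 CPM in dhelix FOXP2 + CHIR and 82.7, 73.1, 73.0, 74.4 and 76.0 CPM in WT FOXP2 + CHIR cells (-0.95 ± 0.059 and -1.06 ± 0.059). CCNA2, the cyclin of S phase and G2, had not changed with FOXP2 alone by the test (0.05 ± 0.043 for dhelix FOXP2 and -0.014 ± 0.044 for WT FOXP2), and fell by more than 2-fold with the drug in FOXP2 cells (-1.07 ± 0.045 and -1.02 ± 0.045). Its exons overlap EXOSC9 on the other strand, at 66.9% of its mean count.

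**Figure D3:**
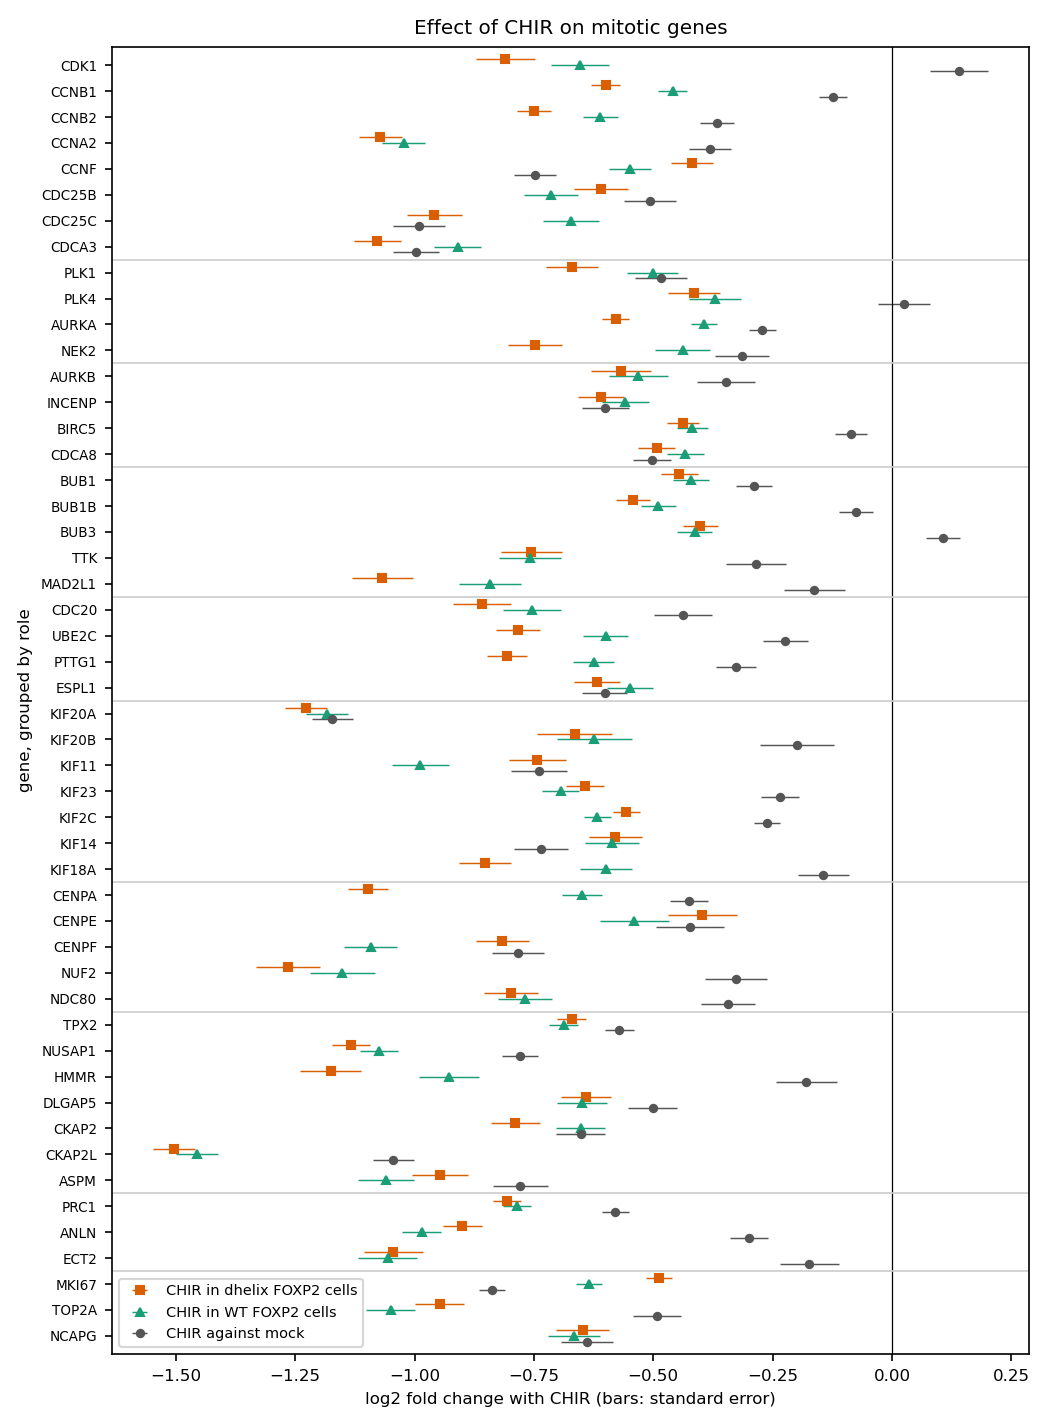
Log2 fold change of each of the 50 genes (vertical axis, grouped by role) with CHIR in dhelix FOXP2 cells, in WT FOXP2 cells and in cells without a FOXP2 plasmid (CHIR against mock); bars are standard errors. All values in both kinds of FOXP2 cells lie left of 0, from -1.503 to -0.40 and from -1.46 to -0.37, and CHIR alone gave a median of -0.40.

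The drug's effect differed between cells with and without FOXP2 for most of the genes, as it did for most of all genes tested. Among the 50, the differences were mostly negative. FOXP2 itself was higher with the drug than without it, as given above, and its level cannot be told apart from the drug here. The interaction, the log2 fold change with CHIR in FOXP2 cells minus that in cells without a FOXP2 plasmid, was tested in the same fit. It was more negative in WT FOXP2 cells for 34 of the 50 and more positive for 3, against 34.9% and 30.7% of all genes, with a median of -0.29 against -0.016. With dhelix FOXP2 it was more negative for 33 and more positive for 2, against 33.7% and 31.2%, with a median of -0.35 against -0.0048. The interaction did not pass for 13 of the 50 and 6355 of all 18485 genes with WT FOXP2, and for 15 and 6498 with dhelix FOXP2. Under upper-quartile scaling the split for WT FOXP2 was 23 to 8, and under library totals 20 to 11; these scalings moved the median of all genes to 0.12 and 0.18. Without CHIR replicate 1 the counts were 33 and 4 for WT FOXP2 and 35 and 5 for dhelix FOXP2. For these alternatives the shares of all genes are not given here.

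Among the most negative interactions were those of ECT2, HMMR, CDK1 and NUF2. ECT2 had -0.87 ± 0.087 with dhelix FOXP2 and -0.88 ± 0.087 with WT FOXP2 (adjusted p = 8.9e-11 and 6.2e-11), and HMMR -0.996 ± 0.09 and -0.75 ± 0.09 (adjusted p = 4.6e-12 and 3.6e-09). CDK1 had -0.95 ± 0.086 and -0.79 ± 0.086 with the same constructs, and without CHIR replicate 1 -0.84 and -0.66. NUF2, a subunit of the outer kinetochore, had -0.94 ± 0.094 and -0.82 ± 0.094. NUF2 averaged 39.9 ± 2.18 CPM in dhelix FOXP2 + CHIR, 35.7 ± 2.15 in WT FOXP2 + CHIR, 64.4 ± 11.0 in CHIR, 95.8 ± 2.42 in dhelix FOXP2, 79.3 ± 3.46 in WT FOXP2 and 80.8 ± 4.62 CPM in mock cells (SD, n = 5 each). Its lowest levels were thus those of the 2 groups with both treatments. ANLN, a scaffold of the contractile ring, had -0.60 ± 0.057 with dhelix FOXP2 and -0.69 ± 0.057 with WT FOXP2, and MAD2L1, a checkpoint inhibitor of CDC20, -0.91 ± 0.09 and -0.68 ± 0.091. For KIF20A the interactions of -0.055 ± 0.061 and -0.01 ± 0.061 did not pass (adjusted p = 0.44 and 0.89); under library totals the value for WT FOXP2 was 0.19.

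A few genes lost less with CHIR in FOXP2 cells than in cells without it. MKI67 had 0.35 ± 0.038 with dhelix FOXP2 and 0.20 ± 0.038 with WT FOXP2 (adjusted p = 4.7e-10 and 1.9e-05). CCNF had 0.33 ± 0.062 and 0.20 ± 0.062 with the same constructs. CDC25C had 0.32 ± 0.081 with WT FOXP2 (adjusted p = 0.00085) and 0.032 ± 0.081 with dhelix FOXP2 (adjusted p = 0.74). All 3 were already lower in FOXP2 cells than in mock. For MKI67 and CDC25C both FOXP2 + CHIR groups still had lower means than CHIR alone. KIF14 did not pass (0.16 with dhelix FOXP2 and 0.15 with WT FOXP2), but passed without CHIR replicate 1, at 0.26 and 0.27. With dhelix FOXP2, CENPE and KIF11 also passed without that library, at 0.16 and 0.10.

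**Figure D4:**
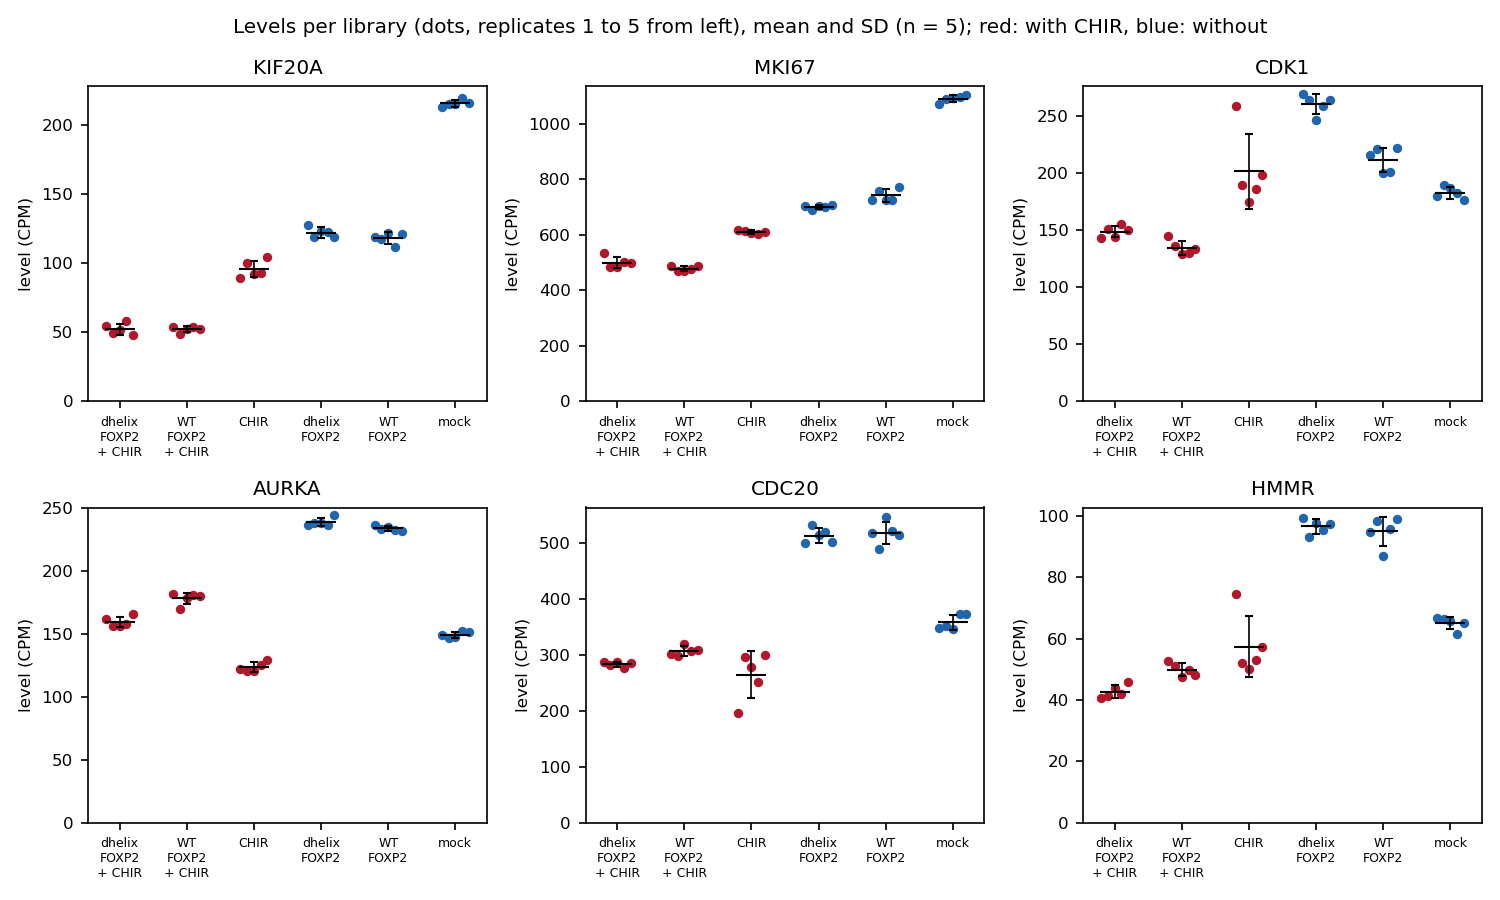
Level in CPM (vertical axis, from 0) of KIF20A, MKI67, CDK1, AURKA, CDC20 and HMMR in each library of the 6 groups (horizontal axis); dots are replicates 1 to 5, bars the mean and SD, red with CHIR and blue without. KIF20A averages 52.1 and 52.0 CPM with FOXP2 and CHIR and 216 CPM in mock cells, while AURKA, CDC20 and HMMR are highest in the FOXP2 groups without the drug.

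Set against CHIR cells, most of the genes were lower in cells with a FOXP2 plasmid and CHIR. Plasmid load and FOXP2 cannot be told apart here. In WT FOXP2 + CHIR cells 40 fell and 5 rose (edgeR, n = 5 per group), where 40.2% and 38.2% of all genes did, with a median of -0.44 against -0.026. In dhelix FOXP2 + CHIR cells 40 fell and 2 rose, with a background of 38.9% and 37% and a median of -0.44. Without CHIR replicate 1, 38 fell and 6 rose with WT FOXP2, 39 fell and 3 rose with dhelix FOXP2, and both medians were -0.34. The largest falls were those of CENPF (-1.21 ± 0.056 with WT FOXP2 and -0.99 ± 0.056 with dhelix FOXP2), TOP2A (-1.19 ± 0.051 and -0.93 ± 0.051), NUSAP1 (-1.13 ± 0.04 and -0.97 ± 0.04) and CDC25B (-0.97 ± 0.057 and -0.999 ± 0.057). AURKA and PLK1 rose in both: AURKA by 0.37 ± 0.029 with dhelix FOXP2 and 0.53 ± 0.028 with WT FOXP2, PLK1 by 0.15 ± 0.055 and 0.39 ± 0.055, of which the first was 0.10 without CHIR replicate 1. The other 3 that rose with WT FOXP2 were CDCA8, a subunit of the passenger complex (0.23 ± 0.04), CDC20 (0.22 ± 0.061) and TPX2, the activator of AURKA at the spindle (0.073 ± 0.031, adjusted p = 0.032; lost under 3 of 41 alternatives, among them WT FOXP2 + CHIR replicate 4 left out, and 0.14 without CHIR replicate 1 and 0.12 without WT FOXP2 + CHIR replicate 2).

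The same gene could thus move in opposite directions with and without the drug. The level of FOXP2 also differed between these settings, being higher with the drug, and the 2 cannot be told apart. The comparisons WT FOXP2 against mock and WT FOXP2 + CHIR against CHIR share no library. The shares of all genes tested with each pair of calls are not given here. The counts that follow therefore describe the mitotic genes without a background, and whether they differ from other genes in this was not tested. Of the 14 genes that rose with WT FOXP2 alone, 5 also rose with CHIR present (PLK1, AURKA, CDCA8, CDC20 and TPX2), 7 fell (CDK1, CCNB1, BUB3, MAD2L1, HMMR, ANLN and ECT2) and 2 did not pass (BUB1 and UBE2C). The falls of HMMR and BUB3 were lost without CHIR replicate 1, at -0.056 (adjusted p = 0.22; 0.0011 to 0.25 over all alternatives) against -0.20 with it, and at -0.033 (adjusted p = 0.27; 0.007 to 0.47 over all alternatives) against -0.11; the call of BUB3 was also lost without CHIR replicate 5 or WT FOXP2 + CHIR replicate 2, 3 or 5. Of the 24 that fell with WT FOXP2 alone, 22 fell with CHIR present and 2 did not pass (CCNF and KIF14). Without CHIR replicate 1, KIF14 rose with CHIR present, by 0.15 with either construct (edgeR, adjusted p = 0.00026 with WT FOXP2 and 0.00032 with dhelix FOXP2). With dhelix FOXP2, 2 of the 15 risen genes rose again (PLK1 and AURKA), 10 fell and 3 did not pass, and 18 of the 20 fallen genes fell again. Without CHIR replicate 1, 16 genes rose with WT FOXP2 alone, of which 5 rose with CHIR present, 8 fell and 3 did not pass, and 19 rose with dhelix FOXP2 alone, of which 2 rose, 11 fell and 6 did not pass. BUB3 was among those that no longer passed with dhelix FOXP2, at -0.036. PLK1 and AURKA were thus the genes that rose with either construct, without and with the drug.

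Between FOXP2 without residues 264 to 272 and WT FOXP2 the differences were small. FOXP2 itself was lower in the dhelix groups than in the WT groups, as given above, which cannot be told apart from the deletion. Without CHIR, 14 of the 50 were higher in dhelix FOXP2 than in WT FOXP2 cells and 5 lower (edgeR, n = 5 per group), where 16.9% and 18.7% of all genes were, with a median of 0.041 against 0.0025. The split was 18 to 1 under upper-quartile scaling and 22 to 1 under library totals, and 21 to 7 without CHIR replicate 1, a library of neither group; the cause was not tested. With CHIR, 4 were higher in dhelix FOXP2 + CHIR than in WT FOXP2 + CHIR cells and 6 lower, with a background of 16.6% and 13.9%; without CHIR replicate 1, 8 were higher and 8 lower. CENPA had the largest difference without the drug, 0.42 ± 0.04 (adjusted p = 1.2e-10), with dhelix FOXP2 libraries at 59.6 to 63.4 CPM and WT FOXP2 libraries at 44.3 to 47.5 CPM. With the drug it did not pass (-0.024 ± 0.044, adjusted p = 0.73), and the difference between these 2 values passed the test (-0.45 ± 0.06, adjusted p = 2e-06). The counts of CENPA are uncertain, since SLC35F6 overlaps its exons on the same strand, with a mean count of 209% of its own. CDK1 and NUF2 were also higher in dhelix FOXP2 cells (0.30 ± 0.06 and 0.27 ± 0.063). The lower genes were ASPM (-0.15 ± 0.056), CDC25B (-0.14 ± 0.055), TPX2 (-0.14 ± 0.03), CDCA8 (-0.099 ± 0.038) and MKI67 (-0.082 ± 0.027). Under 41 alternatives, most of them fits without 1 library, the calls of ASPM, CDC25B, CDCA8, MKI67 and TPX2 were lost 18, 27, 18, 11 and 2 times.

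With CHIR, the genes higher with the deletion were TOP2A (0.25 ± 0.051), CENPF (0.22 ± 0.056), KIF11, the motor that separates spindle poles (0.17 ± 0.061), and NUSAP1 (0.16 ± 0.041); that of KIF11 was lost under 22 of 41 alternatives. PLK1 was lower (-0.24 ± 0.054, adjusted p = 0.00086), and its dhelix FOXP2 + CHIR libraries, at 103 to 115 CPM, did not overlap the WT FOXP2 + CHIR libraries, at 124 to 136 CPM. HMMR (-0.23 ± 0.066), KIF18A, a motor that dampens chromosome movement on the spindle (-0.22 ± 0.056), AURKA (-0.16 ± 0.028), CDCA8 (-0.16 ± 0.04) and TPX2 (-0.12 ± 0.031) were lower as well. The effect of CHIR differed between the constructs for 10 genes, more negative with the deletion for 7 and more positive for 3, where 5.29% and 8.93% of all genes differed. These counts were 13 and 0 under library totals, 10 and 2 under upper-quartile scaling, 8 and 2 with the size factors of DESeq2, and 16 and 5 without CHIR replicate 1. Beside CENPA, the more negative ones included NEK2, a centrosome kinase (-0.31 ± 0.081), CDC25C (-0.29 ± 0.084), KIF18A (-0.25 ± 0.076) and AURKA (-0.19 ± 0.039); the more positive ones were CENPF (0.28 ± 0.078), KIF11 (0.24 ± 0.084) and MKI67 (0.15 ± 0.038). The last 3 calls were lost under 9, 31 and 7 of 41 alternatives. KIF18A shares exons with METTL15 on the other strand, at 32.9% of its mean count.

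Other cell-cycle genes, from lists written with earlier results in view, were measured beside the 50. Of 50 further mitotic genes, 40 fell and 7 rose with CHIR alone (median -0.40; 35.3% and 38.8% of all genes did), and 49 fell and 1 rose with the drug in either kind of FOXP2 cells (-0.57 in dhelix FOXP2 and -0.55 in WT FOXP2), where 29.1% and 30.2% of all genes fell and 34.1% and 34.8% rose. The 1 that rose was CDCA5, sororin, which protects cohesin (0.22 ± 0.036 and 0.15 ± 0.036). Without the drug, 28 of the further mitotic genes fell and 12 rose with dhelix FOXP2 against mock, and 30 and 10 with WT FOXP2. The background was 40.9% and 39.6% for dhelix FOXP2 and 41.6% and 39.9% for WT FOXP2. Among 42 DNA replication genes, set against the same shares of all genes, 26 fell and 10 rose with CHIR alone (median -0.27), led by RRM2, a subunit of ribonucleotide reductase (-1.43 ± 0.038), and MCM6, of the replicative helicase (-1.09 ± 0.036). In WT FOXP2 cells 30 replication genes fell with the drug and 3 rose, and in dhelix FOXP2 cells 27 fell and 9 rose. Of the 17 genes of the anaphase-promoting complex list, 7 rose and 3 fell with CHIR alone, which for the risen (41.2%) is near the background of 38.8%, with 17.6% fallen against 35.3%.

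The regulators of the programme changed in both directions. Of 22 transcriptional regulators 7 rose and 8 fell with CHIR alone (31.8% and 36.4%, near the 38.8% and 35.3% of all genes), and 12 and 15 fell with the drug in dhelix FOXP2 and WT FOXP2 cells (54.5% and 68.2%, against 29.1% and 30.2%). FOXM1, the forkhead factor that activates many G2/M genes, fell with CHIR alone (-0.13 ± 0.039), with dhelix FOXP2 (-0.45 ± 0.039) and with WT FOXP2 (-0.28 ± 0.039), and fell with FOXP2 in the presence of CHIR (-0.48 ± 0.04 with dhelix FOXP2 and -0.57 ± 0.04 with WT FOXP2). E2F2, an activator of S-phase genes, fell with CHIR alone (-2.34 ± 0.066), while E2F7, a repressor of the same family, rose (1.38 ± 0.047). Of 15 CDK inhibitors and G2 checkpoint genes, 6 rose and 6 fell with CHIR alone (40% each, near the background), from -2.52 to 2.75. With WT FOXP2 4 rose and 9 fell, where 39.9% and 41.6% of all genes did. With dhelix FOXP2 4 rose and 8 fell, where 39.6% and 40.9% did. CDKN1A, the p21 inhibitor of cyclin-dependent kinases, rose in each comparison of FOXP2 or CHIR with its control, among them by 0.29 ± 0.055 with CHIR alone, 0.70 ± 0.054 with dhelix FOXP2, 0.57 ± 0.055 with WT FOXP2, and 0.40 ± 0.053 and 0.36 ± 0.054 with the drug in dhelix FOXP2 and WT FOXP2 cells. GADD45A, a stress-induced protein that can inhibit CDK1, rose with CHIR alone (2.75 ± 0.057), with dhelix FOXP2 (2.26 ± 0.056) and with WT FOXP2 (2.49 ± 0.057). With the drug in FOXP2 cells, the largest rise of any gene in this list was 1.21 (dhelix FOXP2) and 1.18 (WT FOXP2). WEE1, the kinase that holds CDK1 inactive, fell with the drug in dhelix FOXP2 and WT FOXP2 cells (-0.69 ± 0.049 and -0.72 ± 0.049). Whether any of these genes bears on the levels of the 50 was not tested.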

How the data were processed

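Stranded mRNA libraries of 30 U2OS samples were read from both ends, per the labels' protocols. The values are whole-number gene counts as deposited by the authors, not normalised, and reads carry no molecular identifiers. STAR 2.6.1a, featureCounts, Subread, DESeq2 and hg19 stand in the submitters' processing notes. Which annotation and strand setting were used is not given in the sources used here. Genes that overlap on opposite strands are therefore uncertain, and 5 of the 50 have such a partner with at least 10% of their counts (CCNA2, CDC25C, KIF18A, KIF20A and NCAPG). CENPA has 1 on its own strand. Overlaps come from GENCODE 29, matched by gene.

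Counts were filtered with filterByExpr and scaled by trimmed means of M values. One quasi-likelihood fit (edgeR 4.0.16 with robust dispersions, limma 3.58.1, R 4.3.3) covered all 30 libraries and was tested on simulated data. It gave 9 pairs of groups and 3 interactions. P-values were adjusted by Benjamini-Hochberg over 18485 genes, with 0.05 as the threshold, and a standard error is the log2 fold change over the square root of F. The biological coefficient of variation was 5.62%, and no replicate pair was within sampling noise of each other (chi-square per gene at least 1.39). Levels of different genes are not compared, since counts are not per length.

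Genes with values for every library are CDK1, CCNB1, CCNF, PLK1, AURKA, BIRC5, BUB3, CDC20, KIF20A, CENPA, CKAP2, MKI67 and TOP2A, with those of the largest changes. Other members are named by role where they changed most, did not pass or went against the rest, with up to 4 genes of each other list per comparison. BUB3, PLK4 and others that rest on CHIR replicate 1 were singled out after their values were seen. The members, lists and tests were chosen with earlier results of these data known.

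Alternatives were DESeq2 size factors, upper-quartile scaling, library totals, no filter, a filter at a mean of 1 CPM, a replicate block, the compared groups alone, FOXP2 left out of the counts, a test against a 1.5-fold change, the Wald test of DESeq2 1.42.0, and each library left out. Leaving out CHIR replicate 1, dhelix FOXP2 replicate 5 and WT FOXP2 + CHIR replicate 4 together was added after seeing the data, since each lay apart from its group.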

Additional observations from a re-analysis of the deposited data

Results flagged for a closer look

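CHIR replicate 1 lay far from the other 4 CHIR libraries for 19 of the 50 genes, by the gap to its nearest neighbour as a share of the group's range (above 0.71). It was high for CDK1 (258 CPM, the others at most 198 CPM), PLK4 (77.7 CPM), BUB1B (159 CPM), TTK (71.8 CPM), MAD2L1 (121 CPM), KIF20B (137 CPM), KIF11 (141 CPM), KIF14 (94.6 CPM) and KIF18A (85.2 CPM). It was also high for CENPE (248 CPM), CENPF (623 CPM), NUF2 (83.8 CPM), DLGAP5 (295 CPM), CKAP2 (101 CPM), ANLN (545 CPM), ECT2 (175 CPM), TOP2A (1061 CPM) and NCAPG (90.4 CPM), and low for CDCA3 (47.3 CPM, the others at least 58.1 CPM). The same library stands apart over all genes. In all, 35 of 300 pairs of gene and group (11.7%) had such a library, where chance gives about 1 in 20 (5%).

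The other 16 lay in 10 libraries. AURKA was low in WT FOXP2 + CHIR replicate 2 (170.2 CPM) and high in dhelix FOXP2 replicate 5 (244 CPM). WT FOXP2 + CHIR replicate 2 was also low for KIF2C (156 CPM), and replicate 1 of that group was high for BUB1 (214 CPM) and CKAP2 (78.7 CPM). In dhelix FOXP2 + CHIR, replicate 5 was high for INCENP (93.1 CPM) and replicate 4 for CKAP2 (80.4 CPM), and CHIR replicate 5 was high for PTTG1 (102 CPM). WT FOXP2 replicate 3 was high for AURKB (47.5 CPM) and low for KIF18A (76.5 CPM), and replicate 5 was high for BUB3 (236 CPM) and KIF14 (124 CPM). Mock replicate 2 was high for DLGAP5 (345 CPM), ANLN (597 CPM) and TOP2A (1237 CPM), and mock replicate 4 for ESPL1 (159 CPM).

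By the test of the difference itself (edgeR, adjusted p under 0.05), and with FOXP2 higher where the drug was given, the effect of CHIR differed between cells with and without FOXP2. For WT FOXP2 it was more positive for 3 genes and more negative for 34, with ECT2 (-0.88), NUF2 (-0.82), CDK1 (-0.79), HMMR (-0.75) and ANLN (-0.69) at one end and CDC25C (0.32), MKI67 (0.20) and CCNF (0.20) at the other. For dhelix FOXP2 it was more positive for 2 and more negative for 33, with HMMR (-0.996), CDK1 (-0.95), NUF2 (-0.94), MAD2L1 (-0.91), ECT2 (-0.87), MKI67 (0.35) and CCNF (0.33). Between dhelix FOXP2 and WT FOXP2 cells it was more positive for 3 and more negative for 7, with CENPA (-0.45), NEK2 (-0.31), CDC25C (-0.29), KIF18A (-0.25) and AURKA (-0.19) against CENPF (0.28), KIF11 (0.24) and MKI67 (0.15). Of all genes tested, 30.7% were more positive and 34.9% more negative for WT FOXP2. These shares were 31.2% and 33.7% for dhelix FOXP2, and 8.93% and 5.29% between the constructs.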

How the results depend on the processing

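All 50 genes fell with CHIR in WT FOXP2 and in dhelix FOXP2 cells under every alternative except the test against a 1.5-fold change, where 21 and 28 did; with CHIR alone 42 to 48 fell when 1 library was left out, and 11 against 1.5-fold. Small changes depend on scaling, filter and single libraries, the causes of which were not tested. Shares of all genes under each alternative are not given in this section, and those of the main fit do not carry over to them. The lowest count of a gene in a library was 153 (CDC25C), with a counting error of 8.08%, above the biological coefficient of variation of 5.62%; it was the only 1 of the 50 with such a count in any library.

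The number that rose with CHIR alone (2) was 1 with DESeq2's size factors, with no filter, with FOXP2 left out and with the DESeq2 Wald test. It was 0 with upper-quartile scaling, library totals, a mean of at least 1 CPM, the compared groups alone, the 1.5-fold test and without the 3 libraries that stood apart, and 0 to 2 with 1 library left out. Against 1.5-fold, 1 rose and 5 fell with WT FOXP2, 1 and 4 with dhelix FOXP2, 0 and 8 with WT FOXP2 in the presence of CHIR and 0 and 6 with dhelix FOXP2 there. None (0 and 0) differed between dhelix FOXP2 and WT FOXP2 without or with CHIR, the interactions gave 0 and 5 for WT FOXP2, 0 and 5 for dhelix FOXP2, and 0 and 0 for the deletion. For all counts against 1.5-fold, the share of all genes is not given here.

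Upper-quartile scaling gave 9 that rose with WT FOXP2, 1 lower with the deletion, and 8 and 4 more positive interactions with WT FOXP2 and dhelix FOXP2. Library totals gave 8 that rose with WT FOXP2, 31 that fell with dhelix FOXP2, 22 higher and 1 lower with the deletion, and interactions of 11 more positive and 20 more negative for WT FOXP2, 4 more positive for dhelix FOXP2, and 0 and 13 for the deletion. They moved the group medians to -0.82 in dhelix FOXP2 + CHIR, -0.82 in WT FOXP2 + CHIR, -0.51 in CHIR, -0.17 in dhelix FOXP2 and -0.27 in WT FOXP2 cells, and the median of all genes to -0.19 with WT FOXP2, -0.13 with dhelix FOXP2, 0.12 with CHIR in WT FOXP2 cells, and 0.18 and 0.14 for the 2 FOXP2 interactions. With no filter, 0 were lower with the deletion, whose interaction had 1 and 14. A mean of at least 1 CPM gave 2 lower with the deletion, 4 that rose with dhelix FOXP2 in the presence of CHIR, 6 more positive interactions with WT FOXP2 and 11 more negative ones for the deletion. The compared groups alone gave 22 higher and 8 lower with the deletion, 8 higher with it in the presence of CHIR, 1 that rose with dhelix FOXP2 in the presence of CHIR, and 5 and 16 for the deletion's interaction. With FOXP2 left out, 3 were lower with the deletion. Without the 3 libraries, 8 were lower with the deletion and 7 higher with it in the presence of CHIR, 5 interactions were more positive with dhelix FOXP2, and the deletion's were 5 and 16.

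With 1 library left out, 14 to 16 rose and 22 to 26 fell with WT FOXP2, and 15 to 19 and 16 to 22 with dhelix FOXP2. With CHIR present 4 to 6 rose and 38 to 41 fell with WT FOXP2, and 2 to 4 and 39 to 41 with dhelix FOXP2 (4 without CHIR replicate 2 or 5). The deletion gave 13 to 21 higher and 1 to 7 lower, and 3 to 8 and 6 to 8 with CHIR (8 higher without CHIR replicate 1). Interactions gave 3 to 4 more positive and 30 to 35 more negative for WT FOXP2, 2 to 5 and 30 to 36 for dhelix FOXP2 (5 without CHIR replicate 1), and 0 to 5 and 6 to 16 for the deletion (11 more negative without CHIR replicate 3, and 5 and 16 without CHIR replicate 1). The 3 smallest counts moved by over 1.5 times with many libraries: the 2 risen with CHIR alone with 22 of them, the 5 lower with the deletion with 13 (1 to 3 left without any 1 of the dhelix FOXP2 or WT FOXP2 libraries, dhelix FOXP2 + CHIR replicate 2, WT FOXP2 + CHIR replicate 2 or CHIR replicate 3), and the 3 more positive interactions of the deletion with 8 (0 or 1 left without dhelix FOXP2 replicate 2, 3 or 4, WT FOXP2 replicate 1, 2 or 5, or WT FOXP2 + CHIR replicate 2).

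Single genes changed sign under some alternatives, and some of the reversed values passed the test. Among these were the WT FOXP2 interactions of PLK1, KIF20A and CKAP2 under library totals (edgeR, adjusted p = 0.032, 0.0088 and 0.019). With CHIR alone, BUB3 was -0.0024 under library totals, and CDK1 and PLK4 were -0.0059 and -0.0891 without the 3 libraries and -0.0057 to 0.17 and -0.089 to 0.053 with 1 library left out, lowest without CHIR replicate 1. With WT FOXP2, BUB1 was -0.021 and -0.068 and PTTG1 -0.11 and -0.15 under upper-quartile scaling and library totals, and CDCA8 was -0.00019 and KIF2C -0.11 under library totals. With dhelix FOXP2, KIF2C was -0.064 and -0.10 under the same 2 scalings, BIRC5 and TPX2 were -0.10 and -0.071 under library totals, and the median of the 50 was 0.023 with no filter. The interaction with WT FOXP2 was 0.018 and 0.075 for AURKA, 0.0068 and 0.065 for BUB1 and 0.024 and 0.081 for TPX2 under those scalings, and 0.18 for PLK1, 0.19 for KIF20A and 0.20 for CKAP2 under library totals. That with dhelix FOXP2 was 0.016 and 0.046 for TPX2, and for KIF11 0.12 without the 3 libraries and -0.045 to 0.10 with 1 library left out, highest without CHIR replicate 1.

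A replicate block by number gave 2 risen and 46 fallen with CHIR alone, 14 and 25 with WT FOXP2, 15 and 20 with dhelix FOXP2, 14 higher and 4 lower with the deletion and 6 and 6 with CHIR, 5 and 40 with WT FOXP2 and 2 and 40 with dhelix FOXP2 in the presence of CHIR, 0 and 50 with CHIR in either kind of FOXP2 cells, and interactions of 3 and 34, 2 and 33, and 3 and 9. Of 600 values of single genes, 594 kept their direction and call. The numbers do not pair the samples: correlations of the deviations of same-numbered libraries were -0.077 to 0.14 over 75 pairs, with 1 over 0.1.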
